A study of Mus musculus with 14 samples.

Results

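Osteoblasts and endothelial cells sorted from the marrow of untreated mice were compared across all measured genes, to describe the transcription factors, receptors, secreted factors and metabolic genes that tell these resting populations apart. The comparison takes 7 of the 14 arrays of the series, chosen by their titles: 3 untreated pOBcol2.3-GFP arrays and 4 untreated CD31 arrays, with 1 sample per array. The mice were C57BL/6J, labelled wild type, 6 to 8 weeks old, and carried a GFP reporter driven by a fragment of a collagen I promoter. The osteoblast gate was CD45- ter119- CD31- GFP+ and the endothelial gate was CD45- ter119- GFP- CD31+, both after collagenase digestion of bone. Untreated mice received vehicle alone, for 7 days in the protocol text. The other 7 arrays hold the same 2 gates from mice given G-CSF at 250 ug/kg, for 5 days in titles and protocol. They are separate samples in which a difference can be looked at again. They also enter the estimate of spread behind every adjusted p and the choice of probe sets. The reporter marks cells that use this promoter fragment, so the osteoblast gate is defined by collagen I activity and not by a single maturation stage. The labels do not say that the arrays are from separate animals, so the p-values measure only the spread between these samples, which may be technical.

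Osteoblasts are mesenchymal cells that secrete and mineralise the collagen I matrix of bone. They follow Runt, Dlx, Twist and osterix factors, respond to parathyroid hormone, Wnt and BMP signals, and provide cytokines to neighbouring blood cells and osteoclasts. Marrow endothelial cells line arterioles, capillaries and the wide sinusoids through which blood cells leave. Their identity rests on ETS, SOX and GATA factors, their growth on VEGF and angiopoietin receptors, and they are known for taking up fatty acids, clearing waste through scavenger receptors and producing nitric oxide.

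Every array was scaled by the authors to the same trimmed mean of 500.00, and marker levels were used to check the gates. All 16 endothelial markers were called lower in the osteoblast arrays, where a call means a limma adjusted p under 0.05, and their mean level was 8.81 to 9.64 there against 12.91 to 13.31 in the endothelial arrays (log2 of intensity plus 16, the scale of every level below). Of 11 measured osteoblast markers 4 were called higher and none lower, with list means of 11.74 to 13.54 against 10.29 to 11.94. *Col1a1*, the main chain of collagen I, read 15.58, 15.03 and 16.06 on the osteoblast and 15.74, 14.97, 15.04 and 15.56 on the endothelial arrays and was not called (0.23, adjusted p 0.814), with the groups overlapping. *Runx2* and *Bglap* are not analysed here. Tendon and periosteal fibroblast markers were called higher for 12 of 14, with list means of 11.06 to 11.21 in osteoblast and 7.33 to 8.00 in endothelial arrays. Osteoblast replicate 2 had a mean of 12.16 for 12 pan-leukocyte genes against 8.82 in both other osteoblast arrays and 9.86 to 10.96 in the endothelial arrays. Endothelial replicate 1 had a mean of 13.11 for 14 skeletal muscle genes against 7.65 to 9.08 in the other endothelial arrays and 6.25 to 6.95 in the osteoblast arrays, and 8 of the 14 were called lower, or 6 without both arrays just named. Of 14 pericyte and smooth muscle markers 4 were called lower, with list means of 9.49 to 9.65 in osteoblast and 10.28 to 11.34 in endothelial arrays. Of 14 reticular stromal markers 8 were called higher and 1 lower, with list means of 11.64 to 12.48 against 10.91 to 11.25. Without both arrays 8 of these 12 leukocyte genes, 10 of 12 neutrophil genes and 8 of 13 monocyte and macrophage genes were called lower in osteoblasts, against 0, 0 and 1 with all arrays. Among 14 chondrocyte genes 1 was called each way, with list means of 8.99 to 9.52 on the osteoblast arrays. On endothelial replicates 1 to 4 these means were 9.24, 7.52, 10.26 and 11.23. Endothelial replicate 2 had a mean of 10.15 for 9 megakaryocyte genes, against at most 8.95 in the other endothelial arrays. The part of these cells in the results below was not tested. Values without osteoblast replicate 2 and endothelial replicate 1 are given where they end the call of a named gene, and for some list counts. In sorted bulk samples, fewer cells of a type and less RNA per cell cannot be told apart.

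Of 13450 genes tested, 1831 were called higher in osteoblasts and 1722 lower, which is 13.6% and 12.8% of the genes (limma on log2 values, Benjamini-Hochberg adjustment). On arrays centred on their medians, which lowers every difference by 0.23 or close to it, the counts were 1239 higher and 2578 lower. The arrays of the 2 groups did not overlap for 4383 genes, or 32.6%. Differences over 8-fold were called for 69 genes higher and 200 genes lower in osteoblasts, so more of the strongest differences lay on the endothelial side. The median difference over all genes was 0.0021. Among genes of the 4 functional classes, transcription factors were called higher for 53 of 193 and lower for 40, and receptors higher for 55 of 302 and lower for 87. Secreted factors were called higher for 94 of 309 and lower for 44, and metabolic genes higher for 46 of 431 and lower for 69. In percent, 30.4% of secreted factors were called higher and 28.8% of receptors lower, while metabolic genes were called at 10.7% higher and 16% lower, beside the 13.6% and 12.8% of all genes.

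**Figure D1:**
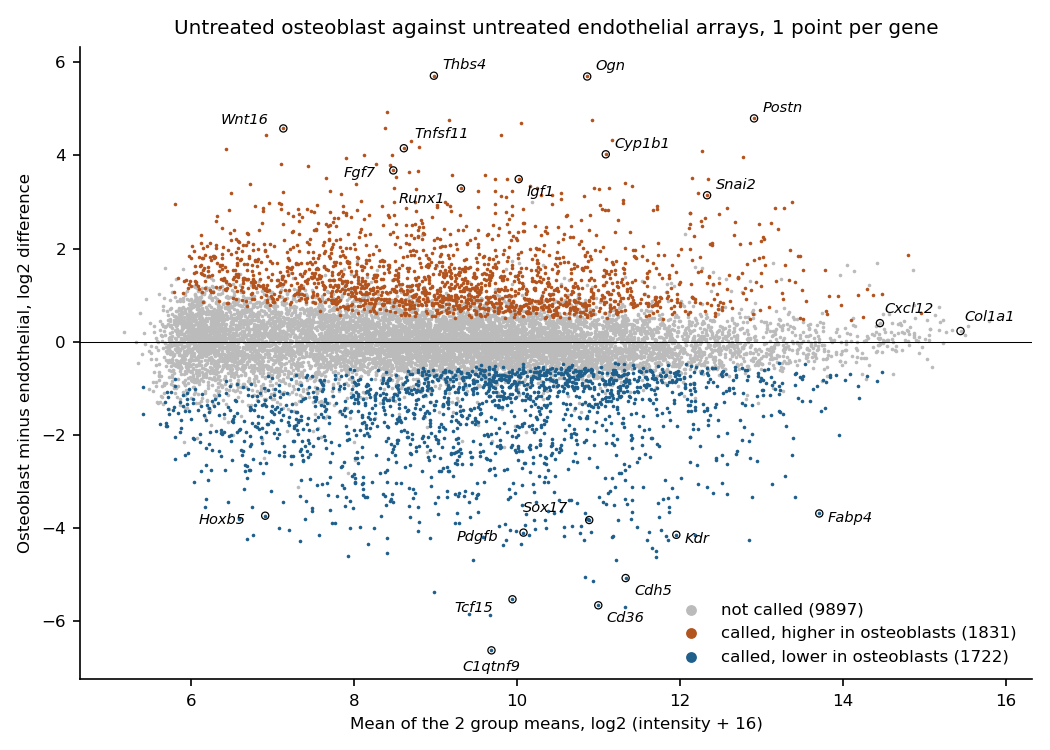
Each point is 1 of 13450 genes, with the mean of the 2 group means on the x axis (log2 of intensity plus 16) and the osteoblast minus endothelial difference on the y axis (log2). The 1831 genes called higher and 1722 called lower are coloured, and the lower side reaches farther, to -6.62 for *C1qtnf9* against 5.71 for *Thbs4* on the upper side.

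The genes with the largest differences toward osteoblasts mostly encode matrix proteins. *Thbs4* (Entrez Gene 21828, chromosome 13), a thrombospondin of tendon and other matrices, read 12.35, 12.28 and 10.87 on the osteoblast and 6.36, 6.50, 6.23 and 5.40 on the endothelial arrays. *Ogn* (Entrez Gene 18295, chromosome 13), a small leucine-rich proteoglycan, read 13.86, 13.58 and 13.68 on the osteoblast and 8.53, 7.71, 8.14 and 7.67 on the endothelial arrays. Both genes lay far apart between the gates with no overlap, by 5.71 ± 0.61 and 5.69 ± 0.32 (log2 difference, osteoblast minus endothelial, ± SE, with 3 and 4 arrays; adjusted p 7.44e-06 and 2.66e-08), which is 52.3-fold and 51.7-fold. The same direction held for *Itgbl1*, a secreted integrin-like protein (4.94), *Postn*, or periostin (4.79), *Aspn*, or asporin (4.76), and *Vcan*, or versican (4.69). Also among the 15 largest were *Abi3bp* (4.76), *Edil3*, a secreted integrin ligand (4.58), *Omd*, a bone proteoglycan (4.34), *Col8a2*, a short-chain collagen (4.32), *Zfhx4*, a zinc finger homeobox factor (4.44), and *Asic3*, an acid-sensing ion channel (4.43). For *Asic3* endothelial replicates 2 and 3 were near 4, the level of an intensity of 0 on this scale, so its difference is set in part by the added 16. The unnamed transcript A530047J11Rik differed by 4.18. Of these 15 genes *Wnt16* and *Tnfsf11* are signalling ligands and are described with the secreted factors. Several of these matrix genes stand in the tendon and periosteal list, which was itself higher in the osteoblast gate, and the part of such cells was not tested.

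On the endothelial side the largest difference was that of *C1qtnf9* (Entrez Gene 239126, chromosome 14), which encodes a secreted relative of adiponectin. It read 6.65, 7.12 and 5.35 on the osteoblast and 13.04, 13.40, 12.69 and 12.87 on the endothelial arrays, which is 98.7-fold lower in osteoblasts (-6.62 ± 0.42, adjusted p 6.06e-08). *Kcna5*, a voltage-gated potassium channel, read 6.32, 7.77 and 6.12 on the osteoblast and 12.61, 12.97, 12.23 and 12.62 on the endothelial arrays, a difference of -5.87. *Ablim3*, an actin-binding LIM protein (-5.85), *Timp4*, an inhibitor of matrix metalloproteinases (-5.69), *Hspa12b*, an endothelial member of the heat shock chaperone family (-5.38), and *Lims2*, a focal adhesion adaptor (-5.14), followed. The defining endothelial genes *Cdh5*, or VE-cadherin, and *Vwf*, the von Willebrand factor, differed by -5.07 and -5.05. *Unc45b*, a myosin chaperone best known from muscle, read 8.33, 8.98 and 9.31 on the osteoblast and 13.33, 13.72, 13.33 and 13.84 on the endothelial arrays, a difference of -4.68. The muscle list stood high in endothelial replicate 1, and the part of muscle cells in the difference of *Unc45b* was not tested. *Adh1*, an alcohol dehydrogenase, differed by -4.63, *Gm32688* by -4.59 and *Tlcd3b* by -4.52.

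Of 55 skeletal and mesenchymal transcription factors 32 (58.2%) were called higher in osteoblasts and 4 (7.27%) lower, beside 13.6% and 12.8% of all genes. Their median difference was 1.21 against 0.0021 over all genes. On arrays centred on their medians the counts were 26 and 7. *Snai2*, a zinc finger repressor of epithelial genes, read 13.996, 13.48 and 14.24 on the osteoblast and 11.06, 10.67, 10.93 and 10.38 on the endothelial arrays, a difference of 3.14 ± 0.25 (adjusted p 4.4e-07). *Prrx1*, a paired-related homeobox factor of limb mesenchyme, read 13.18, 12.18 and 13.08 on the osteoblast and 10.21, 8.75, 10.26 and 9.89 on the endothelial arrays, and *Prrx2*, its close relative, differed by 2.86 beside 3.04. *Runx1*, a Runt factor shared by blood and skeletal cells, read 11.67, 9.80 and 11.39 on the osteoblast and 7.56, 8.02, 7.54 and 7.55 on the endothelial arrays (3.29 ± 0.38, adjusted p 1.79e-05). All 3 osteoblast arrays lay above all endothelial arrays for these factors, with replicate 2 the lowest of the osteoblast arrays for *Snai2*, *Prrx1* and *Runx1*. *Foxc1*, a forkhead factor of mesenchyme and marrow reticular cells, differed by 1.99 ± 0.29. *Ebf3*, which marks reticular stroma, differed by 1.21, with adjusted p 0.015, and the groups overlapped. Without osteoblast replicate 1 the adjusted p of *Ebf3* was 0.0973.

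Not every factor of bone was called. *Sp7*, or osterix, the osteoblast commitment factor, read 12.33, 9.64 and 12.32 on the osteoblast and 11.06, 9.29, 11.34 and 10.32 on the endothelial arrays and was not called (0.93 ± 0.82, adjusted p 0.451). Osteoblast replicate 2 lay within the endothelial range for *Sp7*, and the other osteoblast arrays above it. *Twist1*, a bHLH factor of mesenchyme, and *Sox9*, the cartilage master factor, were called higher by 1.74 and 1.38, but both calls ended without certain single arrays. Leaving out any of 5 arrays ended the call of *Twist1* (adjusted p up to 0.12, without osteoblast replicate 3), and any of 4 that of *Sox9* (up to 0.114, without osteoblast replicate 3). On arrays centred on their medians neither was called (adjusted p 0.0582 and 0.0542). Against the direction of their list, 3 of the 4 factors called lower kept that call without any single array. *Meox2*, a homeobox factor of muscle and vessels, read 8.51, 8.21 and 8.02 on the osteoblast and 11.61, 11.77, 11.65 and 11.31 on the endothelial arrays (-3.34 ± 0.27, adjusted p 5.71e-07). *Meox1*, its relative, and *Tbx3*, a T-box repressor, differed by -1.74 and -1.84.

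**Figure D2:**
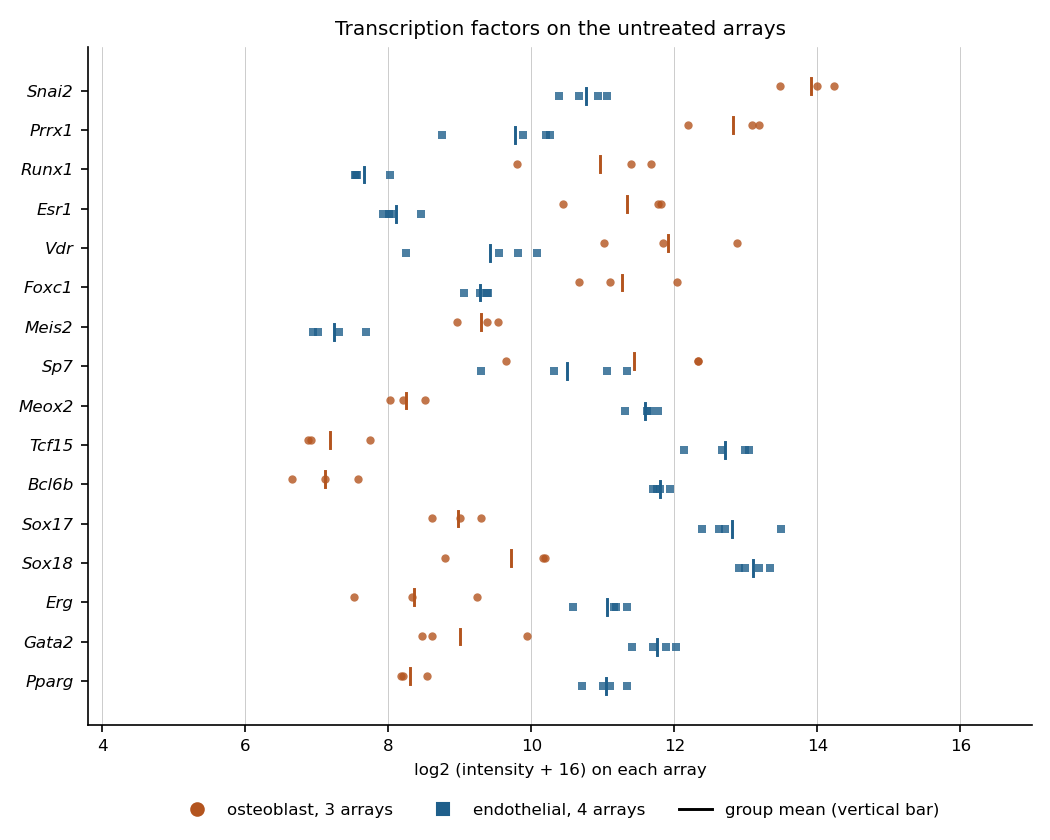
Level of 16 transcription factors on each untreated array (x axis, log2 of intensity plus 16), with the 3 osteoblast arrays as circles, the 4 endothelial arrays as squares and vertical bars at the group means. *Sp7* is the factor shown whose groups overlap, and *Tcf15* shows the widest gap, with osteoblast arrays from 6.88 to 7.75 and endothelial arrays from 12.14 to 13.05.

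Of 44 endothelial transcription factors measured, 24 (54.5%) were called lower in osteoblasts and 3 (6.82%) higher, beside 12.8% and 13.6% of all genes. The median difference of the list was -0.88. *Tcf15*, a bHLH factor known from somites and from heart endothelium, is not in this list but had the largest difference of any factor named (-5.53 ± 0.43, 46.2-fold, adjusted p 4.11e-07). *Bcl6b*, a BTB zinc finger repressor, read 6.65, 7.11 and 7.58 on the osteoblast and 11.80, 11.75, 11.70 and 11.94 on the endothelial arrays, a difference of -4.69. The SOXF factors, which drive arterial and lymphatic fates, were all called lower, with *Sox17* at -3.83, *Sox18* at -3.39 and *Sox7* at -3.37. *Sox17* read 9.30, 9.01 and 8.61 on the osteoblast and 12.39, 13.48, 12.70 and 12.62 on the endothelial arrays, so the gap between the groups was wider than the spread within either. The ETS factors *Erg* and *Fli1*, which hold endothelial identity, differed by -2.70 ± 0.32 and -1.82 ± 0.25 (adjusted p 2.21e-05 and 8.39e-05). *Erg* read 7.53, 9.24 and 8.32 on the osteoblast and 10.58, 11.18, 11.16 and 11.33 on the endothelial arrays. *Gata2*, shared by endothelium and blood progenitors, differed by -2.75, the flow-responsive *Klf2* by -1.41 and the hypoxia factor *Epas1* by -0.85.

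For some factors that endothelium shares with blood cells the groups overlapped. *Tal1* read 8.58, 9.93 and 8.19 on the osteoblast and 9.82, 10.15, 9.95 and 10.13 on the endothelial arrays and *Lmo2*, its partner in blood and vessel formation, read 10.15, 11.85 and 10.07 on the osteoblast and 11.59, 12.07, 11.72 and 11.75 on the endothelial arrays. Both were called lower (-1.12 and -1.09), but osteoblast replicate 2, the array with the high leukocyte genes, overlapped the endothelial arrays. The calls of these genes ended without certain single arrays (adjusted p up to 0.112 for *Tal1* and 0.135 for *Lmo2*, each without osteoblast replicate 3). *Nr2f2*, the venous fate receptor COUP-TFII, was called lower (-1.28), and any of 5 arrays left out ended that call (up to 0.115, without osteoblast replicate 3). The 3 listed factors called higher in osteoblasts were *Ikzf2*, an Ikaros family factor (2.36), *Meis2*, a Hox cofactor (2.05), and *Nfat5*, which responds to osmotic stress (1.12).

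The Hox genes, which record position along the body axis, fell on different sides for 3 of the 4 clusters, with the *Hoxa* genes mostly not called. All 6 *Hoxc* genes tested were called higher in osteoblasts, with differences of 1.04 to 3.18, and all 5 *Hoxb* genes were called lower, with differences of -3.73 to -0.85. Both *Hoxd* genes tested were called lower, and of 7 *Hoxa* genes 2 were called higher and none lower. On arrays centred on their medians 5 *Hoxc* genes were higher, all 5 *Hoxb* and both *Hoxd* genes lower, and 1 *Hoxa* gene was called each way. The groups did not overlap for any tested *Hoxb*, *Hoxc* or *Hoxd* gene, beside 32.6% of all genes. Of 43 Hox and related homeobox factors on the array, 29 passed the filter on dim probe sets. That filter takes the mean over all arrays, so a gene dim in 1 gate could enter through the other. Genes dim in both gates were dropped, so the clusters were not tested in full. *Hoxc8* read 9.98, 8.28 and 10.004 on the osteoblast and 6.62, 5.73, 6.64 and 5.98 on the endothelial arrays, and *Hoxb5* read 4.50, 4.55 and 6.06 on the osteoblast and 8.54, 8.97, 8.79 and 8.80 on the endothelial arrays. Osteoblast replicates 1 and 2 were close to 4 for *Hoxb5*, the level of an intensity of 0 on this scale, so its fold is bounded by the added 16. *Hoxc9* and *Hoxc5* differed by 2.52 and 2.08, and *Hoxb6*, *Hoxd9* and *Hoxd8* by -2.63, -2.52 and -1.59. Of the Hox calls 1 of 2 *Hoxa*, 4 of 6 *Hoxc*, 3 of 5 *Hoxb* and both *Hoxd* calls held when any single array was left out. The calls that ended were those of *Hoxa10* (up to 0.16, without osteoblast replicate 1), *Hoxc4* (up to 0.106, without osteoblast replicate 1), *Hoxc6* (0.088, without osteoblast replicate 3, and 0.0641 on centred arrays), *Hoxb2* (0.0632, without osteoblast replicate 2, and 0.0896 without osteoblast replicate 2 and endothelial replicate 1) and *Hoxb3* (0.117, without osteoblast replicate 2). The Hox cofactors *Meis1* and *Meis2* were called higher in osteoblasts (1.84 and 2.05). The grouping by cluster was made after the values were seen. In the G-CSF arrays, which are other samples, all 6 *Hoxc* genes were called higher and 4 of 5 *Hoxb* genes and both *Hoxd* genes lower, while of 7 *Hoxa* genes 3 were called higher and 2 lower.

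**Figure D3:**
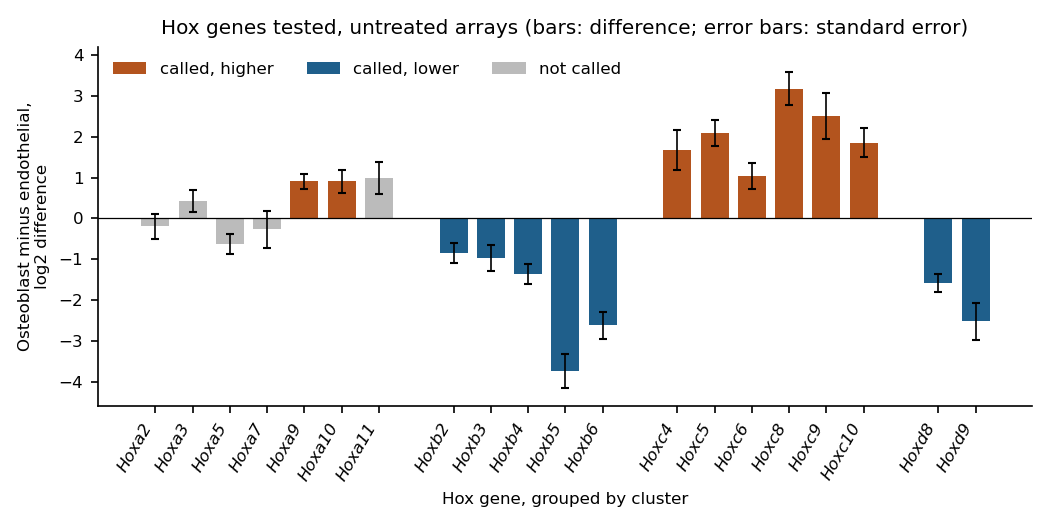
Osteoblast minus endothelial difference (y axis, log2) of the 20 Hox genes tested, in order within each cluster, with the standard error as error bars and colours for called genes. All 6 *Hoxc* bars point up, and all 5 *Hoxb* and both *Hoxd* bars point down.

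Nuclear receptors, which turn steroid and lipid ligands into transcription, were called higher for 5 of 35 (14.3%) and lower for 4 (11.4%), near the 13.6% and 12.8% of all genes, or 3 and 4 on centred arrays. *Esr1*, the estrogen receptor alpha, read 11.81, 10.45 and 11.76 on the osteoblast and 7.93, 8.04, 8.46 and 8.003 on the endothelial arrays (3.23 ± 0.32, adjusted p 3.52e-06). *Vdr*, the vitamin D receptor, read 12.87, 11.02 and 11.84 on the osteoblast and 10.07, 8.25, 9.81 and 9.54 on the endothelial arrays (2.49 ± 0.50, adjusted p 0.00176), and *Rora* differed by 1.70. Neither *Esr1* nor *Vdr* overlapped between the gates, with osteoblast replicate 2 the lowest of its group. On the endothelial side *Pparg*, the fatty acid receptor of adipose tissue and endothelium, read 8.54, 8.18 and 8.21 on the osteoblast and 10.70, 11.01, 11.34 and 11.10 on the endothelial arrays (-2.73 ± 0.24, adjusted p 1.53e-06). *Nr5a2*, a phospholipid-binding receptor, differed by -2.96, and *Nr3c2*, the mineralocorticoid receptor, by -1.24, a call that ended without osteoblast replicate 2 and endothelial replicate 1 together (-0.67, adjusted p 0.0654). Among 15 Krueppel-like factors 1 (6.67%) was called higher and 2 (13.3%) lower, and among 20 immediate early factors 1 (5%) each. On centred arrays these counts were 1 and 4, and 1 and 3, and without osteoblast replicate 2 and endothelial replicate 1 they were 3 and 1, and 4 and 0. Those called higher were *Klf9* (0.98) and *Myc* (1.31).

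Promoters of endothelial genes were read from RefSeq (GRCm38.p6) because 5 ETS-family factors of the list, *Erg*, *Fli1*, *Ets1*, *Ets2* and *Elk3*, were called lower in osteoblasts. *Ets2*, *Ets1* and *Elk3* differed by -3.26, -2.64 and -2.40. The 250 bases before the first listed start were searched for AGGAAG, a core bound by ETS factors, on both strands, and the motif was kept from a wider set after the shares were seen. It occurred in 44.0% of 141 genes over 8-fold lower in osteoblasts with a promoter in the table, in 30.8% of 52 genes over 8-fold higher, and in 28.2% of all 10830. Of other letters searched, GGGCGG occurred in 46.1%, 32.7% and 57.4% of the same sets, TGANTCA in 10.6%, 9.62% and 4.64%, AGATAA in 8.51%, 1.92% and 6.12%, ACAATG in 5.67%, 5.77% and 6.31%, TGTGGT in 8.51%, 17.3% and 10.8%, and TATAAA in 14.2%, 13.5% and 6.9%. None of the 7 motifs contains another. The median count of CG in the window was 7 in the genes over 8-fold lower, 5 in those over 8-fold higher and 15 in all. A match is a description of the letters and not a bound site. The 3 windows shown belong to endothelial receptors described below, with AGGAAG or its reverse complement in capitals, 5′ to 3′ on the strand of the gene. They were picked by hand as examples. All 3 hold a match, beside 44.0% of the genes over 8-fold lower, so they do not represent that set. The window of *Robo4* (chr9:37401722-37401971, plus strand) has 1 match, that of *Flt1* (chr5:147726012-147726261, minus strand) has 2, and that of *Eng* (chr2:32646345-32646594, plus strand) has 2, the first on the other strand.
Robo4: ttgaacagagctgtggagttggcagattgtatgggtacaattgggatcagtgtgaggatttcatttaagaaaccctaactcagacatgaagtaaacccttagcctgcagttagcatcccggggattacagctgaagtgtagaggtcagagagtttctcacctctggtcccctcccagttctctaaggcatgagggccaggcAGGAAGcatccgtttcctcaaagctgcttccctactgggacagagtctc
Flt1: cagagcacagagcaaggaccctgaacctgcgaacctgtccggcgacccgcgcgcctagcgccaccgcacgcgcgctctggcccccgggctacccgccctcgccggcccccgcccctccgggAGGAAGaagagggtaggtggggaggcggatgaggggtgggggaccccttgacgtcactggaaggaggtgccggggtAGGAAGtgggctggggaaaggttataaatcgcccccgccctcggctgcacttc
Eng: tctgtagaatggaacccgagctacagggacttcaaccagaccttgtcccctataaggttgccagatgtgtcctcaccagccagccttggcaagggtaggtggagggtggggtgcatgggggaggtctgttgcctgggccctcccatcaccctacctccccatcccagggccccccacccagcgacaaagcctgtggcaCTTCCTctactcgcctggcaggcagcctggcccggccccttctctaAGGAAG
In *Robo4* the match starts 49 bases before the start site, in *Flt1* 129 and 53 bases and in *Eng* 52 and 6 bases before it.

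Receptor tyrosine kinases were called higher in osteoblasts for 10 of 33 (30.3%) and lower for 6 (18.2%), beside 13.6% and 12.8% of all genes. Vessel receptors were on the lower side. *Kdr*, the main VEGF receptor, read 10.09, 9.61 and 9.95 on the osteoblast and 14.05, 14.04, 13.81 and 14.21 on the endothelial arrays (-4.14 ± 0.23, 17.7-fold, adjusted p 2.53e-08). *Flt1*, which also binds VEGF and placental growth factor, differed by -3.97, *Flt4*, the lymphatic and sinusoidal VEGF receptor, by -3.25, and the angiopoietin receptor *Tek* and its partner *Tie1* by -3.80 and -3.88. *Fgfr2*, a fibroblast growth factor receptor of bone-forming cells, read 13.76, 12.02 and 13.74 on the osteoblast and 10.60, 9.68, 10.35 and 10.42 on the endothelial arrays (2.91 ± 0.45, adjusted p 0.000227). *Ddr2*, a receptor for fibrillar collagen, differed by 2.82, and *Ror2*, which binds Wnt5a, by 2.25. All 3 osteoblast arrays lay above the endothelial arrays for *Fgfr2*, with replicate 2 closest to them. The PDGF receptors *Pdgfra* and *Pdgfrb* were called higher by 1.68 and 1.29, and leaving out any of 3 and 2 arrays ended these calls (up to 0.0993 without osteoblast replicate 1 and 0.0814 without osteoblast replicate 3). Of 15 Eph receptors and ephrins 4 (26.7%) were called higher and 3 (20%) lower. *Epha3* read 10.49, 9.47 and 10.41 on the osteoblast and 6.36, 5.45, 6.43 and 6.28 on the endothelial arrays, a 16-fold difference without overlap, while the arterial ephrin *Efnb2* and the venous receptor *Ephb4* were both lower in osteoblasts (-2.63 and -1.65).

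TGF-beta and BMP receptors were called lower for 6 of 18 (33.3%) and higher for 2 (11.1%), beside 12.8% and 13.6% of all genes. The counts were 5 and 4 without osteoblast replicate 2 and endothelial replicate 1. *Acvrl1*, or ALK1, the BMP9 receptor of endothelium, read 7.50, 8.39 and 7.20 on the osteoblast and 11.20, 11.35, 10.83 and 10.67 on the endothelial arrays (-3.32 ± 0.30, adjusted p 1.64e-06), and its coreceptor *Eng*, or endoglin, differed by -3.05. *Bmpr1a*, a type I BMP receptor, and *Neo1*, or neogenin, were higher in osteoblasts by 1.93 and 1.83. Wnt receptors were called higher for 6 of 18 (33.3%) and lower for 3 (16.7%). *Fzd5* and *Lrp4*, the sclerostin anchor of bone, were higher by 2.36 and 2.22, while *Fzd4*, *Fzd6* and *Tspan12*, the Norrin coreceptor of *Fzd4*, were lower (-2.26, -2.60 and -2.51). In the Notch list 7 of 20 (35%) were called lower and 2 (10%) higher. *Nrarp*, a target and inhibitor of Notch, read 8.44, 8.58 and 8.04 on the osteoblast and 12.14, 12.83, 12.13 and 12.30 on the endothelial arrays, a 16-fold difference. The arterial pair of *Dll4* (-2.68) and *Notch1* (-2.20) and the endothelial receptor *Notch4* (-3.47) were lower in osteoblasts as well, while *Dner*, a Notch ligand-like protein, was higher (10.03, 9.95 and 10.54 on the osteoblast and 6.13, 6.34, 6.74 and 6.22 on the endothelial arrays, 3.82 ± 0.33).

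Of 58 G protein-coupled receptors 20 (34.5%) were called lower in osteoblasts and 8 (13.8%) higher, beside 12.8% and 13.6% of all genes. These counts were 24 and 8 without osteoblast replicate 2 and endothelial replicate 1. *Gpr4*, a proton sensor, read 4.71, 7.32 and 6.89 on the osteoblast and 10.34, 10.75, 10.44 and 10.51 on the endothelial arrays (-4.20 ± 0.56, adjusted p 5.84e-05), with osteoblast replicate 1 at the lowest level. The adhesion receptors *Adgrg1* and *Adgrl4* differed by -3.71 and -3.49, the nucleotide receptor *P2ry2* by -3.37, and the apelin receptor *Aplnr* by -3.32. All 3 osteoblast arrays were near the floor for *P2ry2* (4.31 to 4.63), so that difference is set in part by the added 16. *Calcrl*, the adrenomedullin receptor, and *Ednrb*, the endothelin B receptor, differed by -2.39 and -2.45. *S1pr1*, the sphingosine 1-phosphate receptor of vessels, differed by -0.99, and leaving out any of 5 arrays ended its call (up to 0.166, without osteoblast replicate 2, and 0.141 without osteoblast replicate 2 and endothelial replicate 1). In osteoblasts *Pth1r*, the parathyroid hormone receptor, read 13.75, 12.97 and 13.66 on the osteoblast and 12.34, 9.94, 11.44 and 11.60 on the endothelial arrays (2.12 ± 0.56, adjusted p 0.0111). Endothelial replicate 2 was the lowest for *Pth1r* and replicate 1 the highest of its group, still below every osteoblast array. *Ptgfr*, a prostaglandin F receptor, and *Lpar1*, a lysophosphatidic acid receptor, differed by 2.48 and 2.38.

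Cytokine receptors were called lower for 11 of 37 (29.7%) and higher for 5 (13.5%), beside 12.8% and 13.6% of all genes. The growth hormone receptor *Ghr* read 13.13, 11.97 and 12.56 on the osteoblast and 9.94, 9.65, 10.27 and 9.87 on the endothelial arrays (2.62 ± 0.24, adjusted p 1.89e-06). The leptin receptor *Lepr*, a marker of perivascular reticular cells, read 12.64, 10.42 and 12.12 on the osteoblast and 9.57, 9.60, 9.45 and 8.48 on the endothelial arrays (2.45 ± 0.43, adjusted p 0.000592), and *Lifr*, the leukemia inhibitory factor receptor, differed by 1.83. The groups did not overlap for these 3 receptors, and osteoblast replicate 2 was the lowest of its group for each. *Il13ra2*, a decoy for interleukin-13, and *Il4ra*, its signalling counterpart, were lower in osteoblasts (-2.36 and -2.02). *Csf2rb*, the common beta chain for GM-CSF and interleukin-3, read 8.14, 11.24 and 8.69 on the osteoblast and 11.13, 11.49, 11.47 and 11.16 on the endothelial arrays, and osteoblast replicate 2, the array with high leukocyte genes, stood within the endothelial range. The call of *Csf2rb* ended without certain arrays (up to 0.115, without osteoblast replicate 1). Of 20 TNF receptors 6 (30%) were called lower and 2 (10%) higher, or 8 and 2 without osteoblast replicate 2 and endothelial replicate 1. Among them *Cd40* (-2.44) and *Eda2r* (-1.96) were lower and *Tnfrsf19* (2.53) higher. *Tnfrsf11b*, or osteoprotegerin, the decoy for RANKL, was called higher by 2.13, and leaving out any of 3 arrays ended the call (up to 0.115, without osteoblast replicate 1).

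Scavenger and endocytic receptors were called lower for 13 of 29 (44.8%) and higher for 5 (17.2%), beside 12.8% and 13.6% of all genes. Their median was -0.83. *Stab1* and *Stab2*, the stabilins of sinusoidal endothelium that clear hyaluronan and modified lipoproteins, differed by -3.68 ± 0.44 and -3.37 ± 0.55 (adjusted p 2.15e-05 and 0.00035). *Stab2* read 9.16, 10.84 and 10.31 on the osteoblast and 13.09, 13.38, 13.76 and 13.66 on the endothelial arrays. *Ackr1*, a chemokine-binding receptor of venules, read 7.99, 9.67 and 8.49 on the osteoblast and 12.61, 12.43, 13.21 and 13.05 on the endothelial arrays, a 17.2-fold difference, and *Ackr2*, a chemokine scavenger, differed by -2.10. Osteoblast replicate 2 was the highest of its group for *Stab2* and *Ackr1* but below every endothelial array. In the other direction *Colec12*, a collectin scavenger receptor, read 12.21, 10.45 and 12.03 on the osteoblast and 8.61, 7.62, 8.71 and 8.33 on the endothelial arrays (3.24 ± 0.41), and *Scarf2* and *Lrp1*, a large endocytic receptor, differed by 2.11 and 1.87. In the integrin list of 22 genes, which also holds the integrin-like *Itgbl1*, 5 (22.7%) were called higher and 4 (18.2%) lower. The counts were 5 and 9 without osteoblast replicate 2 and endothelial replicate 1. *Itga6*, part of the laminin receptor, read 8.73, 9.43 and 9.12 on the osteoblast and 13.26, 13.29, 13.27 and 13.22 on the endothelial arrays (-4.16 ± 0.17, adjusted p 3.32e-09). *Itgb4* and *Itga7*, which also serve laminin binding, were lower in osteoblasts (-2.05, with osteoblast replicates 1 and 3 near the floor, and -2.31), while *Itgav* and *Itgb5*, chains of a vitronectin receptor, were higher (1.42 and 1.57).

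Secreted TGF-beta and BMP family ligands were called higher in osteoblasts for 8 of 20 and lower for 3. *Gdf10*, or BMP3b, read 13.27, 12.80 and 12.995 on the osteoblast and 9.32, 9.14, 10.17 and 9.83 on the endothelial arrays (3.40 ± 0.49, adjusted p 0.000109). *Bmp5* and *Inhba*, the activin A subunit, differed by 2.70 and 2.68, and *Bmp6*, known as an endothelial signal for iron balance in liver, was lower (-1.998). *Bmp4* was not called (-0.51, adjusted p 0.445). Antagonists were called higher for 8 of 17 and lower for 3, among them *Grem1*, or gremlin (2.71), *Fst*, or follistatin (2.41), and *Ltbp2* (1.99) higher, and *Chrdl2* (-2.93) and *Ltbp4* (-2.59) lower. The shares called higher were 40% of the ligands and 47.1% of the antagonists, beside 13.6% of all genes.

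Wnt ligands were called higher for 3 of 10 (30%) and secreted Wnt modulators for 8 of 14 (57.1%), beside 13.6% of all genes. No member of either list was called lower. *Wnt16*, a ligand known for protecting cortical bone, read 9.27, 9.72 and 9.27 on the osteoblast and 4.19, 4.64, 4.68 and 5.86 on the endothelial arrays (4.58 ± 0.44, adjusted p 2.62e-06). *Wnt5a* and *Wnt5b*, ligands of the beta-catenin-independent branch, differed by 3.02 and 2.10. The 3 osteoblast arrays lay within 0.5 of each other for *Wnt16*, and 3 of the endothelial arrays were close to the floor of the scale, so its difference is set in part by the added 16. *Rspo3*, which strengthens Wnt signals, read 10.37, 9.53 and 10.82 on the osteoblast and 7.10, 6.96, 7.22 and 7.72 on the endothelial arrays (2.99 ± 0.32), and *Dkk3* and the frizzled-related inhibitor *Sfrp4* differed by 2.91 and 2.25. *Wif1*, a Wnt inhibitor of mature osteoblasts, was called higher by 2.55, with adjusted p up to 0.0884 when 1 of 3 arrays was left out (without osteoblast replicate 3).

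Growth factors were called higher for 20 of 48 (41.7%) and lower for 4 (8.33%), beside 13.6% and 12.8% of all genes. The counts were 14 and 6 on centred arrays, and the median difference was 0.62. *Fgf7*, or keratinocyte growth factor, read 11.08, 9.38 and 10.50 on the osteoblast and 6.67, 6.66, 6.97 and 6.26 on the endothelial arrays (3.68 ± 0.35, adjusted p 2.84e-06). *Angpt1*, the ligand that steadies vessels through *Tek*, read 9.71, 8.75 and 8.81 on the osteoblast and 6.67, 6.74, 5.98 and 5.86 on the endothelial arrays (2.78 ± 0.32, adjusted p 1.76e-05), and *Angpt4* differed by 3.13. *Angpt2*, the antagonist made by endothelium, was not called (-0.81, adjusted p 0.178). The endothelial side had *Pdgfb*, which recruits pericytes and read 7.22, 8.53 and 8.34 on the osteoblast and 12.15, 12.34, 12.08 and 11.95 on the endothelial arrays (-4.10 ± 0.30, adjusted p 2.36e-07), *Egfl7*, a vessel matrix factor (-4.25), and *Edn1*, or endothelin-1 (-3.35). *Fgf9* was lower as well (-1.40). In the insulin-like growth factor list 9 of 15 (60%) were called higher and 3 (20%) lower, with a median of 1.18. *Igf1* read 12.11, 11.17 and 12.01 on the osteoblast and 8.29, 8.30, 8.55 and 7.95 on the endothelial arrays (3.49 ± 0.45, adjusted p 3.99e-05), and *Pappa*, the protease that frees it from binding proteins, differed by 3.59. Binding proteins went both ways, with *Igfbp5* and *Igfbp6* higher in osteoblasts (2.13 and 2.47) and *Igfbp3* lower (-2.82).

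Cytokines were called higher for 3 of 27 and lower for 5, and chemokines for 1 and 2 of 25. These are 11.1% and 18.5% of the cytokines and 4% and 8% of the chemokines, beside 13.6% and 12.8% of all genes. Without osteoblast replicate 2 and endothelial replicate 1 the counts were 5 and 8, and 1 and 6, and on centred arrays 6 chemokines were lower. *Tnfsf11*, or RANKL, which drives osteoclast formation, read 11.23, 9.36 and 11.47 on the osteoblast and 5.87, 6.02, 6.89 and 7.35 on the endothelial arrays (4.15 ± 0.61, 17.8-fold, adjusted p 0.000151). *Il7*, the lymphoid progenitor cytokine, read 10.29, 8.52 and 9.49 on the osteoblast and 7.02, 6.60, 6.93 and 6.67 on the endothelial arrays (2.63 ± 0.34, adjusted p 4.02e-05), and *Csf1*, or M-CSF, differed by 1.51. Osteoblast replicate 2 was the lowest osteoblast array for all 3 genes, yet above every endothelial array. *Tnfsf10*, or TRAIL, a death ligand, was lower in osteoblasts and read 6.93, 6.46 and 6.80 on the osteoblast and 9.66, 10.40, 10.40 and 10.13 on the endothelial arrays (-3.41 ± 0.24). *Cxcl14* was the chemokine called higher (2.53). The niche factors *Cxcl12* and *Kitl* were not called (0.40, adjusted p 0.132, and 0.02, adjusted p 0.98). *Il16* and *Cxcl2* were called lower (-2.03 and -1.82), but osteoblast replicate 2 stood at 10.52 and 13.18 against at most 8.11 and 10.62 in the other osteoblast arrays, and both calls ended without certain arrays (up to 0.0821 and 0.28, each without osteoblast replicate 1). *Ppbp*, a platelet chemokine, was called lower (-3.14), with endothelial replicate 2 the highest at 12.50, and this call also ended without certain arrays (up to 0.104, without osteoblast replicate 1).

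Matrix genes were called on both sides. Of 50 non-collagen interstitial matrix genes 22 (44%) were called higher in osteoblasts and 3 (6%) lower, with a median of 1.46. Of 22 basement membrane genes 2 (9.09%) were called higher and 11 (50%) lower, with a median of -0.99. Over all genes the shares were 13.6% and 12.8%. *Mfap4*, a microfibril protein, read 7.84, 9.10 and 8.55 on the osteoblast and 4.43, 4.29, 4.47 and 4.29 on the endothelial arrays, with all 4 endothelial arrays near the floor. The laminin chain *Lama5* read 7.47, 7.14 and 7.07 on the osteoblast and 9.46, 10.47, 9.82 and 9.50 on the endothelial arrays (-2.59 ± 0.34, adjusted p 5.48e-05), and the network collagens *Col4a1* and *Col4a2* differed by -2.01 and -2.55. *Lama2*, the laminin chain of muscle and mesenchyme, was higher (1.90). Among interstitial genes *Sparcl1* and *Fbln2* stood on the endothelial side (-3.83 and -3.40). Of 21 coagulation genes 7 (33.3%) were called lower and 1 (4.76%) higher. The inhibitor *Tfpi* (-3.28), the receptors *Procr* (-2.75) and *Thbd* (-2.58) of the protein C pathway and the vessel matrix gene *Mmrn2* (-3.34) were lower, and *F3*, or tissue factor, which starts clotting, was higher and read 9.24, 7.73 and 9.66 on the osteoblast and 6.14, 5.81, 6.27 and 6.08 on the endothelial arrays (2.80 ± 0.37). Complement genes were called higher for 5 of 17 (29.4%) and lower for none, or 5 and 2 on centred arrays. The counts were 6 and 4 without osteoblast replicate 2 and endothelial replicate 1. *Serping1*, the C1 inhibitor, differed by 2.17 and *C1ra* by 2.13.

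Axon guidance ligands were called higher for 4 of 26 and lower for 4, and their receptors higher for 5 of 19 and lower for 4. In percent, the ligands were called at 15.4% each way and the receptors at 26.3% and 21.1%, beside 13.6% and 12.8% of all genes. The ligand counts were 7 and 4 without osteoblast replicate 2 and endothelial replicate 1, and the receptor counts 3 and 5 on centred arrays. *Slit2*, a repulsive ligand, read 13.36, 10.91 and 13.13 on the osteoblast and 10.51, 8.23, 10.23 and 9.51 on the endothelial arrays (2.85 ± 0.60, adjusted p 0.0026), and *Sema5a* differed by 2.89. *Robo4*, the endothelial Robo receptor, read 8.35, 9.32 and 8.75 on the osteoblast and 12.58, 12.72, 12.87 and 12.90 on the endothelial arrays (-3.96 ± 0.25, adjusted p 6.63e-08), and *Sema3g*, an endothelial semaphorin, differed by -3.25. Each of *Slit2* and *Robo4* was without overlap, on opposite sides.

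Ligands were then set beside receptors of the same signalling system, which need not bind them, in 63 pairs, of which 51 had both genes tested. The pairs were chosen with earlier results of these data known, so their counts are not an independent survey. In 6 pairs ligand and receptor were called in opposite directions. The ligand was higher in osteoblasts and the receptor lower in 4, which were *Vegfa* and *Kdr* (1.01 and -4.14), *Pgf* and *Flt1* (1.30 and -3.97), *Angpt1* and *Tek* (2.78 and -3.80) and *Slit3* and *Robo4* (1.93 and -3.96). The reverse was found in 2, *Pdgfb* and *Pdgfrb* (-4.10 and 1.29) and *Dll1* and *Notch2* (-2.48 and 1.26). The value of *Notch2* is that of 1 of its 2 probe sets, and the other differed by -0.26. Both genes were higher in osteoblasts in 7 pairs, among them *Fgf7* and *Fgfr2* (3.68 and 2.91) and *Wnt5a* and *Ror2* (3.02 and 2.25). Both were lower in 4 pairs, among them *Edn1* and *Ednrb* (-3.35 and -2.45), *Dll4* and *Notch1*, and *Jag2* and *Notch4* (-2.72 and -3.47). In the remaining 34 pairs one or neither gene was called. Both calls held on centred arrays in 5 of the 7 pairs higher in osteoblasts and 5 of the 6 opposite pairs, and when any single array was left out in 3 of the 7, 4 of the 6 and all 4 lower pairs. The call of *Vegfa* ended when any of 3 arrays was left out (up to 0.124, without osteoblast replicate 1) and on arrays centred on their medians (adjusted p 0.0567). These are levels of RNA in each gate, and signalling between the cells was not measured.

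**Figure D4:**
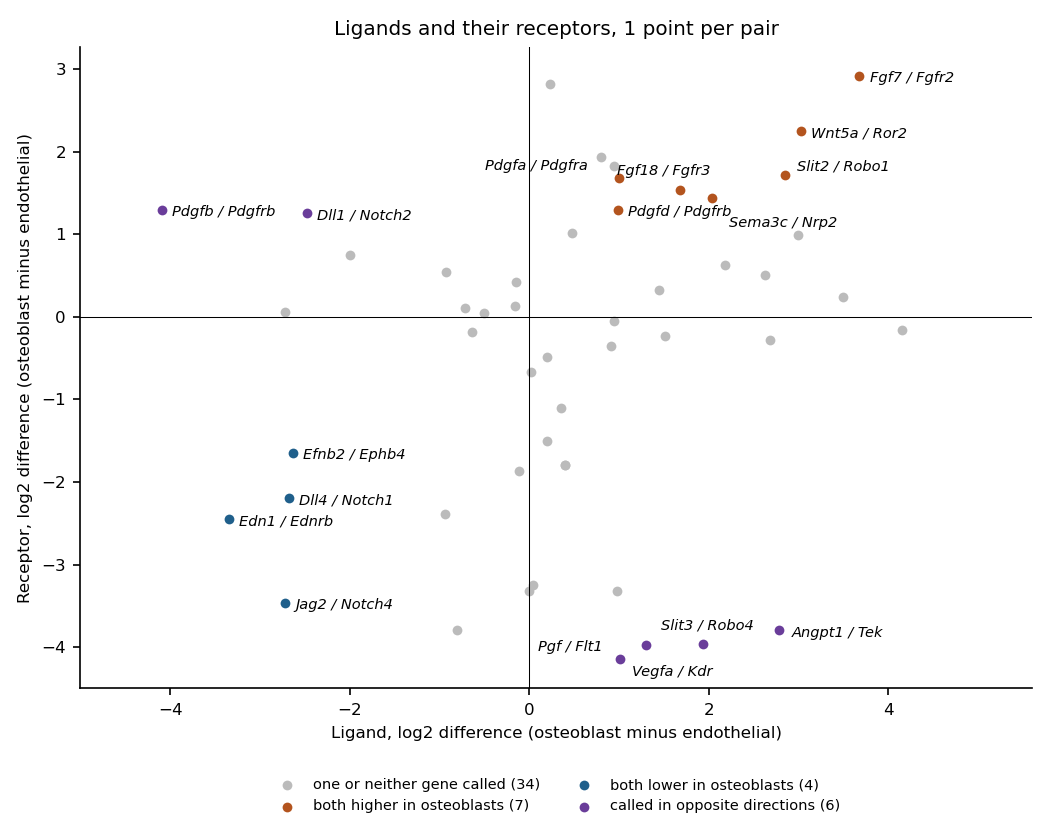
Each point is 1 of 51 ligand and receptor pairs, with the log2 difference (osteoblast minus endothelial) of the ligand on the x axis and that of the receptor on the y axis. The 6 pairs called in opposite directions lie in the upper left and lower right, the 7 pairs higher in osteoblasts in the upper right and the 4 lower pairs in the lower left.

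Related genes of 1 family were compared in 38 pairs chosen for known mesenchymal and vascular members, of which 34 could be tested. The mesenchymal member was higher and the vascular member lower in osteoblasts in 15 pairs. Both calls held for 9 of the 15 on arrays centred on their medians, for 14 without osteoblast replicate 2 and endothelial replicate 1, and for 5 when any single array was left out. The cadherins *Cdh11* and *Cdh5* differed by 2.57 and -5.07, the connexins *Gja1* and *Gja4* by 0.61 and -2.33, and the PDGF ligands *Pdgfa* and *Pdgfb* by 0.99 and -4.10. The inhibitory bHLH factors *Id4* and *Id1* differed by 1.09 and -2.54, and the laminin chains *Lama2* and *Lama4* by 1.90 and -1.17. The opposite pattern was found in 1 pair, the fibulins *Fbln2* (-3.40) and *Fbln5* (1.15). In 2 pairs both genes were lower, and in 16 at most 1 gene was called. The choice of pairs favours a split, and some genes, such as *Sox9*, stand in more than 1 pair. The levels of 2 probe sets cannot be set against each other, so each value is a difference of 1 gene between the gates. The call of *Pdgfa* ended when any of 4 arrays was left out (up to 0.147, without osteoblast replicate 3), that of *Gja1* when any of 5 was (up to 0.198, without osteoblast replicate 3), and that of *Id4* without osteoblast replicate 1 (0.0773). On centred arrays *Pdgfa* and *Gja1*, as well as *Sox9*, *Twist1* and *Nrp2* of other pairs, were not called (adjusted p 0.0643, 0.167, 0.0542, 0.0582 and 0.0538).

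Genes of fatty acid uptake held some of the largest metabolic differences. Of 39 genes of uptake and oxidation 8 (20.5%) were called lower in osteoblasts and 2 (5.13%) higher, beside 12.8% and 13.6% of all genes. These counts were 12 and 2 both on centred arrays and without osteoblast replicate 2 and endothelial replicate 1. *Cd36*, the fatty acid translocase, read 7.90, 8.63 and 7.97 on the osteoblast and 13.81, 14.14, 13.59 and 13.76 on the endothelial arrays (-5.66 ± 0.32, 50.5-fold, adjusted p 2.53e-08). *Gpihbp1*, which carries lipoprotein lipase across endothelium, read 8.83, 10.20 and 9.68 on the osteoblast and 13.70, 13.83, 13.43 and 13.67 on the endothelial arrays (-4.09 ± 0.38), and the fatty acid-binding proteins *Fabp4* and *Fabp5* differed by -3.69 and -2.88. For both genes all osteoblast arrays lay far below all endothelial arrays, with osteoblast replicate 2 the highest of its group. *Lpl*, the lipase itself, was not called (0.64, adjusted p 0.136). *Cpt1c*, a carnitine palmitoyltransferase known from brain, was higher in osteoblasts (2.09). In fatty acid synthesis 6 of 30 (20%) were called each way, or 5 higher and 9 lower on centred arrays. *Thrsp*, a lipogenic nuclear protein (-3.93), *Acacb*, a mitochondrial acetyl-CoA carboxylase (-3.07), and *Elovl5*, an elongase (-1.80), were lower, and the desaturase-like *Fads3* (1.48) was higher. *Thrsp* read 6.60, 10.16 and 7.61 on the osteoblast and 12.17, 12.06, 11.71 and 12.30 on the endothelial arrays, with osteoblast replicate 2 nearest to the endothelial arrays.

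Genes of central carbon metabolism were called at different shares. None of 28 pyruvate dehydrogenase and citric acid cycle genes was called, with a median of -0.18, and 7 of 65 respiratory chain subunits were called lower and none higher, with a median of -0.30. The largest cycle-linked differences were those of the malic enzymes *Me3* and *Me2* (-0.66, adjusted p 0.206, and 0.57, adjusted p 0.165). These counts moved with scaling, to 5 and 13 lower on arrays centred on their medians and to 2 and 11 lower without osteoblast replicate 2 and endothelial replicate 1. Of 29 genes of glucose uptake and glycolysis 4 were called higher and 6 lower, or 2 and 8 on centred arrays. The counts were 4 and 8 without osteoblast replicate 2 and endothelial replicate 1. In percent, 13.8% of the glycolysis list was called higher and 20.7% lower, and 10.8% of the respiratory chain lower, beside 13.6% and 12.8% of all genes. *Pdk4*, which restrains pyruvate oxidation, read 12.44, 12.75 and 12.51 on the osteoblast and 10.56, 9.27, 10.50 and 10.50 on the endothelial arrays (2.36 ± 0.33, adjusted p 9.26e-05). The glucose transporter *Slc2a1*, or GLUT1, read 8.37, 9.52 and 8.81 on the osteoblast and 10.48, 10.60, 10.62 and 10.55 on the endothelial arrays (-1.66 ± 0.23, adjusted p 9.52e-05), and the platelet phosphofructokinase *Pfkp* differed by -1.67. *Pgam2*, the muscle phosphoglycerate mutase, was called lower (-2.96, with osteoblast replicates 1 and 2 near the floor), but endothelial replicate 1, the array with high muscle genes, stood at 11.11 against at most 6.62 in the others, and the call ended without endothelial replicate 1 and osteoblast replicate 2 together (adjusted p 0.0673) and without any of 3 single arrays (up to 0.0911, without osteoblast replicate 1). In one-carbon metabolism 3 of 27 (11.1%) were called higher and 1 (3.7%) lower, which was *Aldh1l1*, a folate dehydrogenase (-3.45). Among 37 amino acid genes 2 (5.41%) were called higher and 3 (8.11%) lower. The counts were 2 and 7 both on centred arrays and without osteoblast replicate 2 and endothelial replicate 1. The glutamate carrier *Slc1a1* was lower (-2.91).

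Enzymes of nitric oxide, retinoid, steroid and xenobiotic metabolism went to both sides. *Nos3*, the endothelial nitric oxide synthase, read 7.48, 8.26 and 8.15 on the osteoblast and 11.74, 12.58, 11.98 and 11.78 on the endothelial arrays (-4.06 ± 0.30, 16.6-fold, adjusted p 2.71e-07). *Cyp1b1*, a cytochrome P450 of estrogen and retinoid metabolism, read 13.54, 12.78 and 12.99 on the osteoblast and 9.33, 9.13, 9.08 and 8.77 on the endothelial arrays (4.02 ± 0.26, 16.3-fold, adjusted p 6.63e-08), while its relative *Cyp1a1* was lower in osteoblasts (-4.14). All osteoblast arrays lay below the endothelial arrays for *Nos3* and above them for *Cyp1b1*. *Cyp4b1* (-3.65) and the retinoic acid hydroxylase *Cyp26b1* (-2.36) were lower, and *Aldh1a3*, which makes retinoic acid, was higher and read 9.11, 8.98 and 8.94 on the osteoblast and 6.38, 6.45, 6.55 and 6.76 on the endothelial arrays (2.48 ± 0.51). Among redox enzymes the plasma glutathione peroxidase *Gpx3* and the superoxide-producing *Nox4* were higher (2.87 and 2.39) and the xanthine dehydrogenase *Xdh* lower (-1.64). Of 24 prostanoid and eicosanoid genes 7 (29.2%) were called lower and 3 (12.5%) higher, beside 12.8% and 13.6% of all genes. The counts were 12 and 3 without osteoblast replicate 2 and endothelial replicate 1. The prostaglandin carrier *Slco2a1* and the lipoxygenase *Alox12* were lower (-2.55 and -2.39). *Ptgs2*, or cyclooxygenase-2, was called higher by 2.299, while its other probe set showed no such difference, with adjusted p up to 0.0797 without osteoblast replicate 1, and *Ptgis*, the prostacyclin synthase, was not called (1.35, adjusted p 0.16).

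Genes of mineral and matrix sugar chemistry went both ways. *Alpl*, the alkaline phosphatase that frees phosphate for mineral, read 13.03, 13.34 and 13.53 on the osteoblast and 11.31, 10.78, 11.21 and 10.84 on the endothelial arrays (2.26 ± 0.36, adjusted p 0.000266), and the phosphate carrier *Slc20a2* read 13.13, 13.38 and 14.002 on the osteoblast and 10.30, 10.25, 11.51 and 10.87 on the endothelial arrays (2.77 ± 0.38). *Ank*, which exports pyrophosphate, differed by 1.63. On the endothelial side *Car4*, a membrane carbonic anhydrase of capillaries, read 5.42, 6.34 and 6.23 on the osteoblast and 10.39, 10.71, 9.99 and 10.27 on the endothelial arrays (-4.35 ± 0.31, 20.3-fold, adjusted p 1.91e-07), and *Entpd1*, or CD39, which degrades extracellular ATP, differed by -2.77. Of 38 genes of proteoglycan and hyaluronan synthesis 11 (28.9%) were called higher and 8 (21.1%) lower, beside 13.6% and 12.8% of all genes. The counts were 6 and 10 on centred arrays and 16 and 6 without osteoblast replicate 2 and endothelial replicate 1. *Has3*, a hyaluronan synthase, read 4.79, 4.22 and 4.69 on the osteoblast and 8.78, 9.32, 8.99 and 8.13 on the endothelial arrays, with osteoblast arrays near the floor, and the sulfotransferases *Chst7* and *Hs3st1* differed by -3.90 and -3.07. *Sulf1*, which removes sulfate from heparan chains, was higher (1.94).

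**Figure D5:**
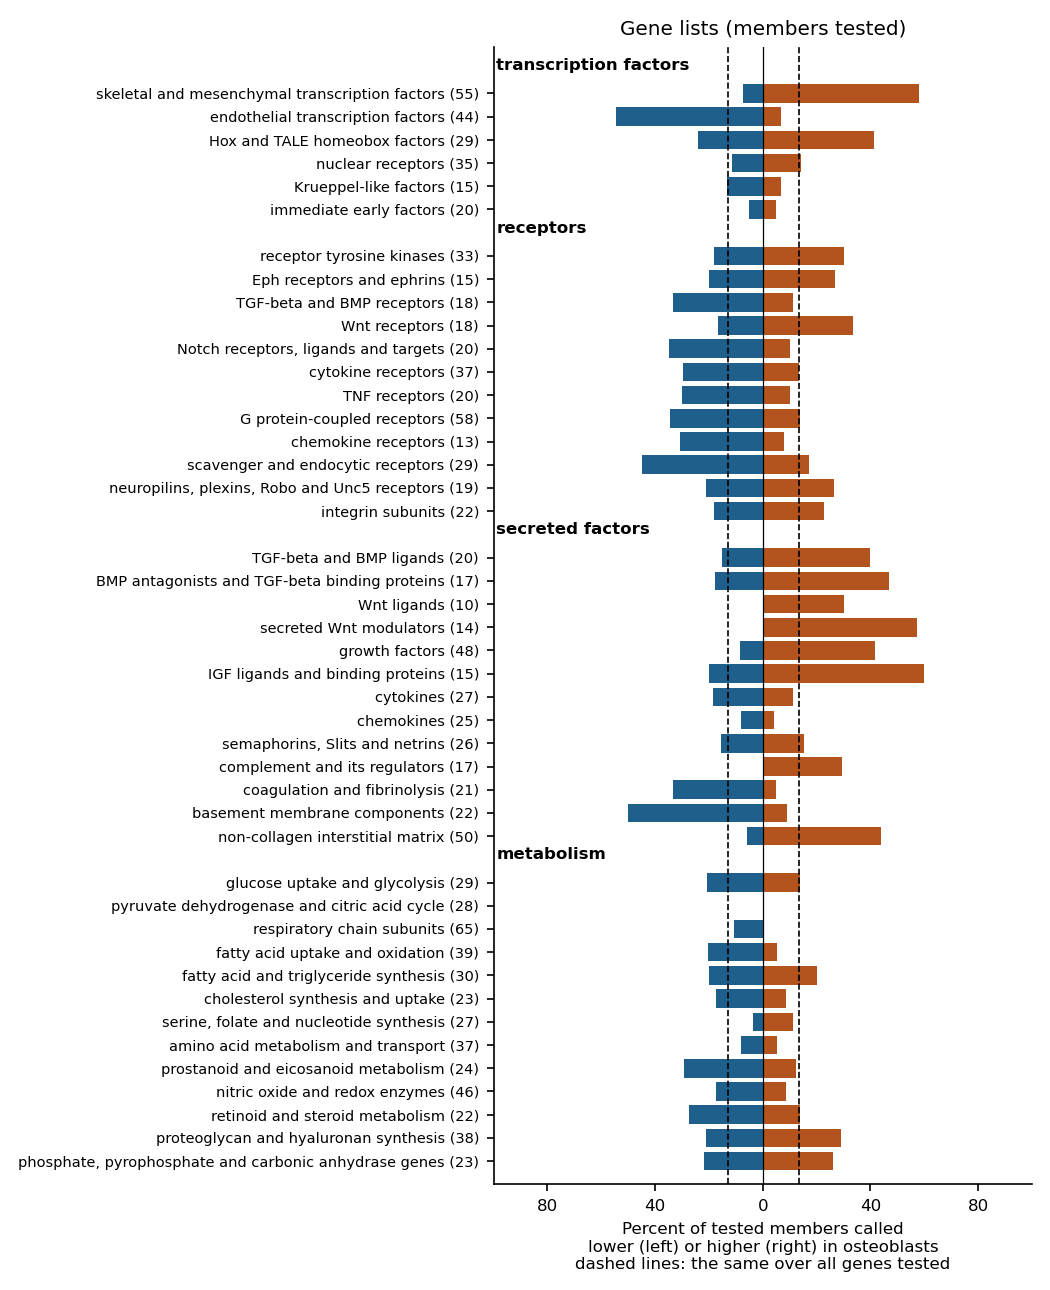
For each of 44 gene lists the bars give the percent of tested members called higher (right) or lower (left) in osteoblasts, with the number tested in parentheses and dashed lines at the 13.6% and 12.8% of all genes. The longest bars to the right are those of the insulin-like growth factor list (60%), skeletal factors (58.2%) and Wnt modulators (57.1%), and to the left those of endothelial factors (54.5%), basement membrane (50%) and scavenger receptors (44.8%), and the citric acid cycle has none.

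The G-CSF arrays gave the same comparison in other samples, and 2866 genes were called in the same direction in both, which is 80.7% of the untreated calls and 66.9% of the 4287 calls there, with 1 gene called in opposite directions. No gene's gap between the gates differed between untreated and G-CSF arrays after adjustment (limma, 622 genes at an unadjusted p under 0.05). Without osteoblast replicate 2, the array with high leukocyte genes, 21 genes passed. Among the 241 called genes named here, 228 were called in the same direction in the G-CSF arrays. Both comparisons come from the same fit, with a shared estimate of the spread and shared probe sets. Of the 3553 untreated calls, 2150, or 60.5%, held when any single array was left out.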

How the data were processed

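RNA of 14 sorted samples was hybridised to Affymetrix mouse arrays, 1 sample per array. The deposited values are probe set intensities on a linear scale that the authors had already summarised and scaled, with Affymetrix Expression Console 1.1 per the submitters' processing notes. The summarising method is not given in the sources used here. Of 45101 probe sets 34945 carry 1 gene symbol in the platform annotation, and 932 with several and 9160 with none were left unnamed. Intensities were used as log2(intensity + 16) without further scaling. The added 16 shrinks differences of dim genes. The dimmest 0.333 of probe sets by the mean over all arrays was dropped, and the brightest probe set stood for each of 13450 genes. Among 1884 called genes with several probe sets kept, all agreed in direction for 1615, or 85.7%. Among the 132 of them named here all agreed for 128, with *Neo1*, *Notch2*, *Ptgs2* and *Rora* as the exceptions. No count of reads exists for arrays, and their number limits the precision.

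Group means over 14 arrays were fitted with limma 3.58.1 in R 4.3.3 (eBayes with a trend), so both gates and treatments share 1 estimate of the spread, and untreated osteoblasts were compared with untreated endothelial cells at a Benjamini-Hochberg adjusted p under 0.05. On simulated data with 200 changed genes, 28% were recovered at a log2 change of 1 and 82% at 2, with 8 unchanged genes called. The simulated noise was independent between genes, and 3553 genes were called in the data, so these shares may not hold there. Genes were named from the 15 largest differences per direction, up to 4 called members per list and direction, ligand and receptor or family pairs, and key genes. The Hox genes by cluster and *Ets1*, *Ets2* and *Elk3* were added after their values were seen. The comparison, the lists, the pairs and the key genes were chosen with earlier results of these data known. Same-numbered arrays of the 2 gates did not all deviate together (correlations 0.0013, 0.2714 and 0.1228), so numbers were not used as pairs. Of 26 alternative settings 2 were chosen after seeing the data.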

Additional observations from a re-analysis of the deposited data

Results flagged for a closer look

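Among 267 levels checked within the 4 endothelial arrays, 14 had 1 array standing apart from the rest, where chance gives about 1 in 20. The number after each is the gap to the nearest array as a share of the group's range, set against Dixon's critical value.

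Endothelial replicate 2 stood apart for 6 genes and 1 list. It was low for *Pdk4* (9.27, nearest 10.50, share 0.951), *Fzd5* (9.46, nearest 10.16, 0.870) and *Epha3* (5.45, nearest 6.28, 0.849). It was high for *Runx1* (8.02, nearest 7.56, 0.955), *Edn1* (10.85, nearest 10.29, 0.853), *Il16* (11.28, nearest 10.54, 0.845) and the mean of the osteoclast list (9.43, nearest 8.82, 0.968).

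Replicate 1 was high for the muscle enzyme *Pgam2* (11.11, nearest 6.62, share 0.959), as it was for the muscle list, and low for *Dll1* (10.33, nearest 10.77, 0.883). Replicate 3 was low for *Timp4* (13.68, nearest 14.30, share 0.919) and *Epas1* (14.57, nearest 14.91, 0.894). Replicate 4 was low for *Lepr* (8.48, nearest 9.45, share 0.870) and for the mean of the monocyte and macrophage list (8.99, nearest 9.82, 0.944), and high for *Mmrn2* (14.80, nearest 14.50, 0.895). Osteoblast groups of 3 were not checked this way.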

How the results depend on the processing

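The counts of 1831 higher and 1722 lower fell to 1048 and 1068 at an adjusted p under 0.01, and to 238 and 424 when a log2 difference of at least 1 was tested. Without 1 array they were 1283 to 2190 higher and 1329 to 2351 lower. Centring on array medians gave 1239 and 2578, quantile normalisation 1601 and 1941, the 7 untreated arrays alone 1536 and 1486, and array weights 2334 and 2475. With the replicate number as a replicate block the counts were 1860 and 1732, and the numbers do not pair the arrays. Without osteoblast replicate 2 and endothelial replicate 1 they were 2006 and 2118. The 3′ to 5′ signal ratio of actin was 3.83, 4.34 and 11.03 on the osteoblast and 4.39, 3.07, 3.01 and 6.57 on the endothelial arrays. For *Gapdh* it was 8.43 to 12.96 and 9.61 to 20.92, so RNA quality may differ between arrays. With the log2 actin ratio as a covariate the counts were 1746 and 1685, and 6 of the 241 named calls were lost.

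Osteoblast replicates 2 and 3 are printed with more decimals than the other 5 untreated arrays. With the printed decimals as a batch term the counts were 1609 and 1796. Arrays of 1 decimal alone leave 1 osteoblast array per treatment, so counts from that setting are not given. Both settings were chosen after seeing the data. No named call reversed under any setting, and the calls lost for named genes ranged from 0 of the 234 still tested after dropping the lower 0.5 of the probe sets, which removed 7 others, to 82 at a minimum log2 difference of 1.

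No gene's gap differed between untreated and G-CSF arrays, where leaving out 1 array gave 0 to 21 genes (21 without osteoblast replicate 2 and 1 without replicate 3). The replicate block gave 2, averaging a gene's probe sets 1, leaving out both arrays named above 1, and arrays of 1 decimal alone 20. The cause of these changes was not tested. Probe sets near an intensity of 0 have no reliable fold.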
